A study of Mus musculus with 5 samples.

Results

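Iron handling in the embryonic mouse lens was described through 7 genes, namely Tfrc, Slc11a2, Fth1, Ftl1, Slc40a1, Ireb2 and Aco1. They were taken by gene symbol from a deposited table of raw RNA sequencing counts with 12370 symbols. All 7 were found there, and all 7 were kept by the filter on low counts, which left 12035 genes for testing. The 2 knockout libraries came from lenses of embryos at embryonic day 14 with the genotype Mlr10-Cre+/-; N-mycloxP/loxP. The 3 control libraries came from Cre -/- embryos of the same day whose N-myc alleles were also flanked by loxP sites. The labels describe controls with N-mycloxP/loxP and controls with N-mycloxP/loxP;c-mycloxP/loxP, without saying for single libraries which of these applied. Each library is RNA of lenses pooled over animals. Mlr10-Cre, a Cre transgene active in lens cells, was carried by both knockout libraries and by no control library, so its effects and those of the N-myc deletion cannot be told apart.

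Cells take up iron by binding transferrin to the transferrin receptor, which is internalised. The iron then leaves the endosome through a divalent metal transporter. Iron that is not used is stored in ferritin, a shell built of heavy and light subunits, and surplus iron leaves the cell through ferroportin. When iron is scarce, 2 related iron regulatory proteins bind hairpins called iron-responsive elements in the untranslated regions (UTRs) of these mRNAs. Binding in a 5′ UTR blocks translation of ferritin and ferroportin, and binding in the 3′ UTR protects the transferrin receptor mRNA from decay. The transferrin receptor gene is also known as a target of MYC proteins. In the lens, which has no blood vessels of its own once mature, iron reaches cells through the fluid around it.

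The elements were searched in the reference transcripts, because the regulatory proteins bind mRNAs through them. The pattern was an unpaired C, an arm of 5 bases, the loop CAGTGN and a second arm of 5 bases that pairs with the first throughout (G with T allowed), on the transcript's own strand. Sequences are from GENCODE release M21 on GRCm38, written 5′ to 3′ with the 6 bases of the loop in capitals and 12 bases on either side.

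Tfrc 3′ UTR, site 1: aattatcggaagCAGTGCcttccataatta

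Tfrc 3′ UTR, site 2: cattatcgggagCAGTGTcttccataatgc

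Tfrc 3′ UTR, site 3: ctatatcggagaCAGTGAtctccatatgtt

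Tfrc 3′ UTR, site 4: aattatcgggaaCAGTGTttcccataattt

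Fth1 5′ UTR: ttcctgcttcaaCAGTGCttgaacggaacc

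Ftl1 5′ UTR: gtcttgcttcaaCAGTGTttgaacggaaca

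Slc40a1 5′ UTR: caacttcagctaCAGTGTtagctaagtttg

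The 4 Tfrc sites lay on the plus strand at chr16:32631219-32631248, chr16:32631598-32631627, chr16:32631663-32631692 and chr16:32631710-32631739. They fell in 1 of the 2 coding Tfrc transcripts of the basic annotation. The Fth1 site, on the plus strand at chr19:9982732-9982761, was in 3 of 3 coding transcripts. The Ftl1 site was on the minus strand at chr7:45459778-45459807, and the Slc40a1 site on the minus strand at chr1:45925464-45925493. Over 21875 coding genes, 0.128% held the pattern in a 5′ UTR and 0.581% in a 3′ UTR. No match was found in UTRs of Slc11a2, Ireb2 or Aco1, which says only that this pattern is not in those annotated sequences. An element with another loop or with an unpaired base in its arms would be missed. The counts add up all transcripts of a gene, and neither translation nor binding to the elements was measured.

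Mycn itself, the gene that encodes N-myc, had 801 and 1141 counts in the knockout libraries, against 2066, 1955 and 1848 counts in the controls. Its log2 fold change was -1.11 (SE 0.15, edgeR quasi-likelihood adjusted p = 0.0097). The total count per library was between 13162384 and 13746416. All 11 lens markers on a fixed list were present, with summed levels of 79447 and 93053 CPM (counts scaled to a common library size) in the knockouts and 85524 to 106847 CPM in the controls. Cryaa alone averaged 47204 of the 86250 CPM in the knockouts and had a log2 fold change of 0.04. Of the 11, 4 fell and 0 rose (36.4% against 16.5% of all genes, edgeR adjusted p under 0.05), with a median log2 fold change of -0.48. The 4 were Bfsp1, a filament protein of lens fibre cells (3.07-fold lower), the crystallin gene Cryab, the transcription factor gene Maf and the water channel gene Mip. Of the 11, 5 had a log2 fold change above 0. Among them, Foxe3 was at 269 and 248 CPM in the knockouts and at 221, 165 and 147 CPM in the controls (0.54, edgeR adjusted p = 0.052). Markers of other tissues differed between the libraries. The 11 mesenchyme markers summed to 2413 and 744 CPM in knockout replicates 1 and 2, against 590.3 to 876 CPM in the controls. Pdgfra alone gave 532 and 443 CPM of this in the knockouts and 463, 426 and 461 CPM in the controls. Col3a1 was far less even, at 692 and 119 CPM in the knockouts and at 45.1, 49.1 and 175 CPM in the controls. All 11 had a log2 fold change above 0. The 9 measured retina markers summed to 79.4 and 186 CPM in the knockouts, against 34.8 to 38 CPM in the controls. In such bulk samples, fewer cells of a type and less RNA per cell cannot be told apart.

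Of the 7 iron genes, Tfrc alone passed the edgeR test, and it fell. Over all genes tested, 8.51% were called lower and 16.5% were called in either direction (edgeR adjusted p under 0.05), so 1 call among 7 genes is near the background. An unadjusted edgeR p under 0.05 was found for 3 of the 7 genes and for 35.8% of all genes. In 3 of the 7 genes (Tfrc, Ftl1 and Ireb2) both knockout libraries lay below every control library, which was the case for 27.0% of all genes tested. The groups were apart in either direction for 52.5% of them. In the other 4 the groups overlapped. The median log2 fold change was -0.27 over the 7 genes and 0.00 over all genes tested.

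**Figure D1:**
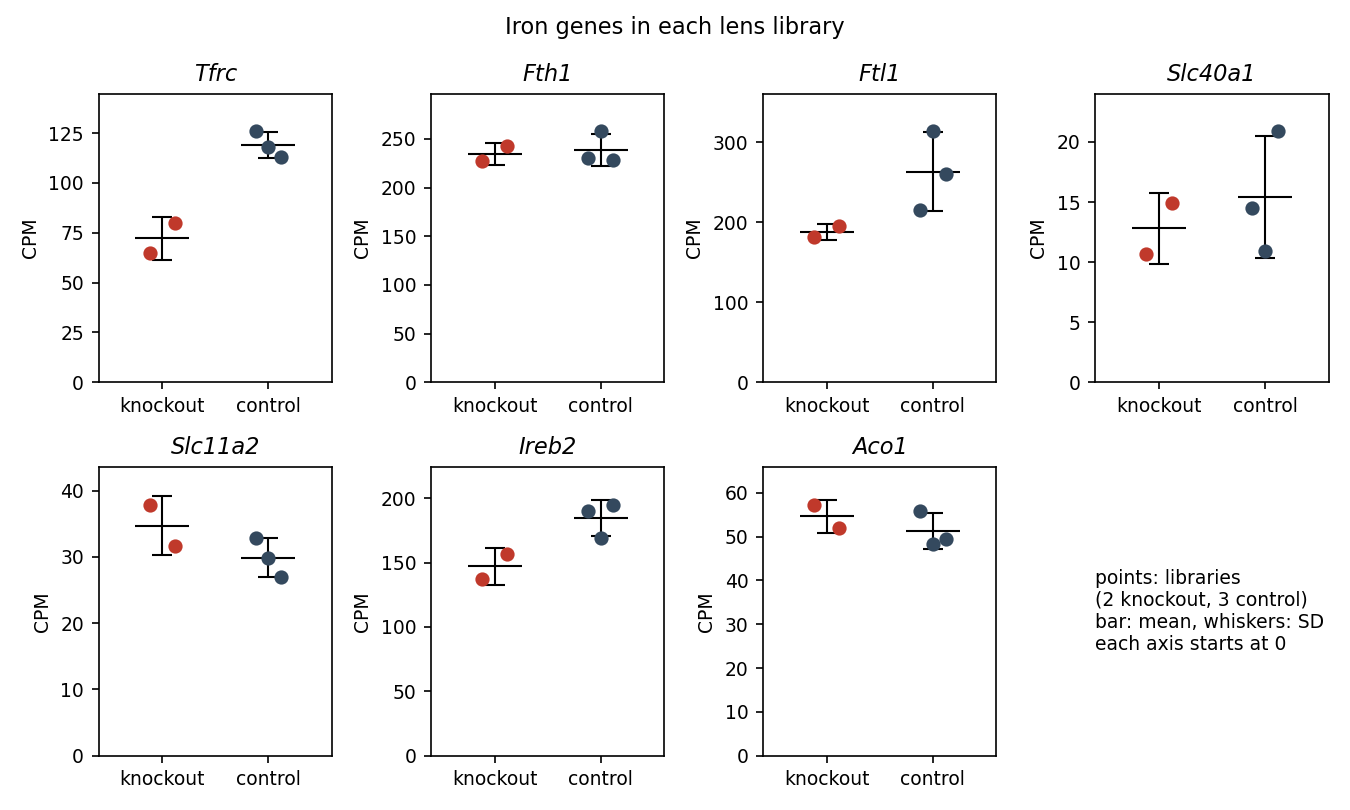
CPM of each iron gene (vertical axes, each from 0) in the 2 knockout libraries, left, and the 3 control libraries, right, with points for libraries, bars for means and whiskers for SD. The Tfrc points are at 64.6 and 79.9 CPM in the knockouts and at 113 to 126 CPM in the controls, while the Fth1 points of both groups lie among each other.

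Tfrc encodes the transferrin receptor, the main entry route for iron (chr16:32608920-32632794, GRCm38). It had 902 and 1114 counts in the knockout libraries, against 1602, 1559 and 1483 counts in the controls. Scaled for library size these were 64.6 and 79.9 CPM in the knockouts and 126, 118 and 113 CPM in the controls. Every knockout value was below every control value, and knockout replicate 1 was the lower of its pair. The means were 72.2 ± 10.9 CPM in the knockouts (SD, n = 2) and 119 ± 6.53 CPM in the controls (SD, n = 3). This is a 1.64-fold fall, with a log2 fold change of -0.72 (SE 0.11, 95% interval -0.97 to -0.47, edgeR adjusted p = 0.012). Without control replicate 2 the log2 fold change was -0.71 and the adjusted p was 0.06, the only one of 14 alternatives in which Tfrc did not pass.

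Features of the libraries also moved with Tfrc. Its reference transcript has a GC content of 39.8%, and the 470 tested genes within 1 percentage point of that had a median log2 fold change of -0.29, with 26.2% of them called lower. When the trends of each library on GC content and length were taken out (the GC and length correction below), the Tfrc log2 fold change was -0.48 and still passed (edgeR adjusted p = 0.033). Of the 11 lens markers, 6 had a negative log2 fold change, like Tfrc, and 5 a positive one. The part of lens cell make-up in the Tfrc result was not tested. Without knockout replicate 1, the library with most mesenchyme RNA, the Tfrc log2 fold change was -0.57. Red blood cell precursors are also rich in transferrin receptor. Their 12 measured markers summed to 176 and 180.4 CPM in the knockouts, against 224 to 254 CPM in the controls. Of these markers Hba-a1, Hba-a2, Hbb-bt and Hbb-b1, adult globin genes among which are near-identical copies, were at 0 in all libraries. The members moved in opposite directions. Ermap, a red cell membrane gene singled out after its values were seen, was 3.42-fold lower (edgeR adjusted p = 0.0007), and without it the sums were 159 and 162 CPM in the knockouts and 165 to 197 CPM in the controls. Slc4a1, the red cell anion exchanger, likewise singled out, was at 14.6 and 23.7 CPM in the knockouts and at 6.04, 7.89 and 13.8 CPM in the controls (log2 fold change 1.05, edgeR adjusted p = 0.066). The part of red blood cells in the Tfrc result was not tested.

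The 5 genes whose levels ran closest to Tfrc over the 5 libraries were Bcat1, Hn1l, Capn3, Ybx3 and Mtg1. Likeness was the Euclidean distance between log2(CPM + 1) values centred on each gene, over 8829 genes with a mean of at least 10 CPM. The distances were between 0.065 for Bcat1, an aminotransferase of branched-chain amino acids, and 0.110 for Mtg1, a GTPase of the mitochondrial ribosome. Capn3, a calcium-activated protease, averaged 4636 CPM in the knockouts and 7593 CPM in the controls. All 5 were called lower, as were 1024 of all genes tested, or 8.51% (edgeR adjusted p under 0.05). They were picked for running close to Tfrc, itself called lower, in these same libraries. Their fall therefore follows from the choice and is no separate result. Among the other iron genes the nearest to Tfrc was Ireb2, at a distance of 0.473, followed by Ftl1 at 0.550. The 5 genes above are the closest by choice, so a greater distance for any other compared gene was fixed in advance. Whether 0.473 or 0.550 is far for a typical gene was not measured.

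Slc11a2 encodes DMT1, the transporter that moves iron out of the endosome (chr15:100387898-100425072). It was at 37.9 and 31.6 CPM in the knockouts and at 32.8, 29.9 and 27 CPM in the controls. The groups overlapped, since knockout replicate 2 lay below control replicate 1. The log2 fold change was 0.22 (95% interval -0.07 to 0.51, edgeR adjusted p = 0.25). The gene overlaps Gm5475 on the opposite strand over 2926 bases, introns included, and how much of this is exon was not measured. Without a stated strand setting, reads from any exon bases shared by the pair cannot be told apart.

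Fth1 encodes the ferritin heavy chain, which oxidises iron for storage (chr19:9980598-9985098). It was at 227 and 243 CPM in the knockouts and at 230.4, 258 and 228 CPM in the controls. The groups overlapped almost fully, with a log2 fold change of -0.02 (edgeR adjusted p = 0.88). The 95% interval ran from -0.23 to 0.18.

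Ftl1 encodes the ferritin light chain, which helps the iron core form (chr7:45457944-45459884). It was at 181 and 195 CPM in the knockouts and at 215, 314 and 260.2 CPM in the controls. Both knockout libraries lay below the controls, but the controls themselves were widely spread, with a mean of 263 ± 49.7 CPM (SD, n = 3). The log2 fold change was -0.49 (SE 0.15, 95% interval -0.83 to -0.14) and did not pass (edgeR adjusted p = 0.058). It passed with DESeq2 (adjusted p = 0.012), with the GC and length correction (edgeR adjusted p = 0.026) and without control replicate 1 (edgeR adjusted p = 0.025). Its highest adjusted p over the 14 alternatives was 0.25, without knockout replicate 1. The GC content of Ftl1 is 58.1%, and genes within 1 percentage point of that had a median log2 fold change of 0.26, the opposite direction. Both ferritin genes have processed copies elsewhere in the genome, and reads shared with these can be lost or misplaced. Ftl1 also overlaps Gm10252 on the opposite strand over 416 bases and the microRNA gene Gm22133 on its own strand over 109 bases. These overlaps are between whole genes, introns included.

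**Figure D2:**
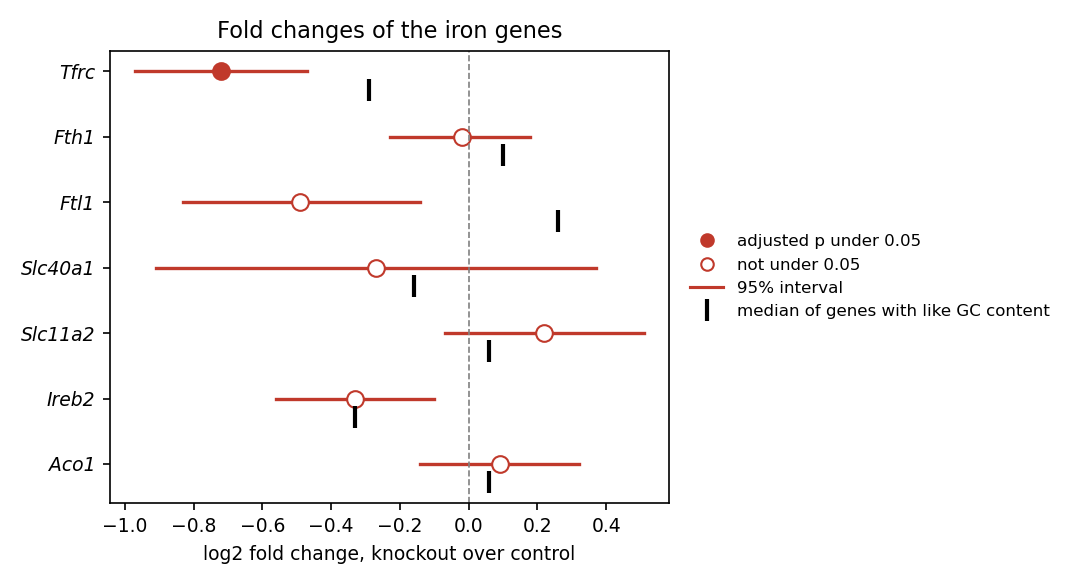
Log2 fold changes, knockout over control (horizontal axis), of the 7 iron genes with 95% intervals, and as black ticks the medians of genes within 1 percentage point of the same GC content. Tfrc lies at -0.72 with a GC median of -0.29, Ireb2 at -0.33 with a median of -0.33, and Ftl1 at -0.49 with a median of 0.26.

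Slc40a1 encodes ferroportin, the exporter of iron (chr1:45908068-45926523). It was the least abundant of the 7 genes, at 10.7 and 14.9 CPM in the knockouts and 14.5, 10.9 and 20.9 CPM in the controls. The groups overlapped and the controls differed among themselves by more than the group means did. The log2 fold change was -0.27, with a 95% interval of -0.91 to 0.37 (edgeR adjusted p = 0.51), so neither a fall nor a rise of moderate size could be told from the spread between libraries. Macrophages are known for ferroportin, and their 10 measured markers summed to 57.2 and 58.1 CPM in the knockouts and 29.5 to 51.8 CPM in the controls. Their part in the Slc40a1 values was not tested.

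Ireb2 encodes iron regulatory protein 2, which is degraded when iron is plentiful (chr9:54863789-54912530). It was at 137 and 157 CPM in the knockouts and at 190.2, 169 and 195 CPM in the controls. Both knockout libraries lay below the controls, and the gap between knockout replicate 2 and control replicate 2 was smaller than the spread within either group. The log2 fold change was -0.33 (SE 0.10, 95% interval -0.56 to -0.10) and did not pass with edgeR (adjusted p = 0.055), but did with DESeq2 (adjusted p = 0.018) and without knockout replicate 2 (edgeR adjusted p = 0.031). Its transcript has a GC content of 39%, and the 340 genes within 1 percentage point of that had a median of -0.33, the same as Ireb2. With the GC and length correction the log2 fold change of Ireb2 was -0.08 (edgeR adjusted p = 0.57).

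Aco1 encodes iron regulatory protein 1, which serves as cytosolic aconitase when it holds an iron-sulphur cluster (chr4:40143081-40198338). It was at 57.3 and 52 CPM in the knockouts and at 55.9, 48.3 and 49.4 CPM in the controls. The groups overlapped, with a log2 fold change of 0.09 (95% interval -0.14 to 0.32, edgeR adjusted p = 0.52).

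**Figure D3:**
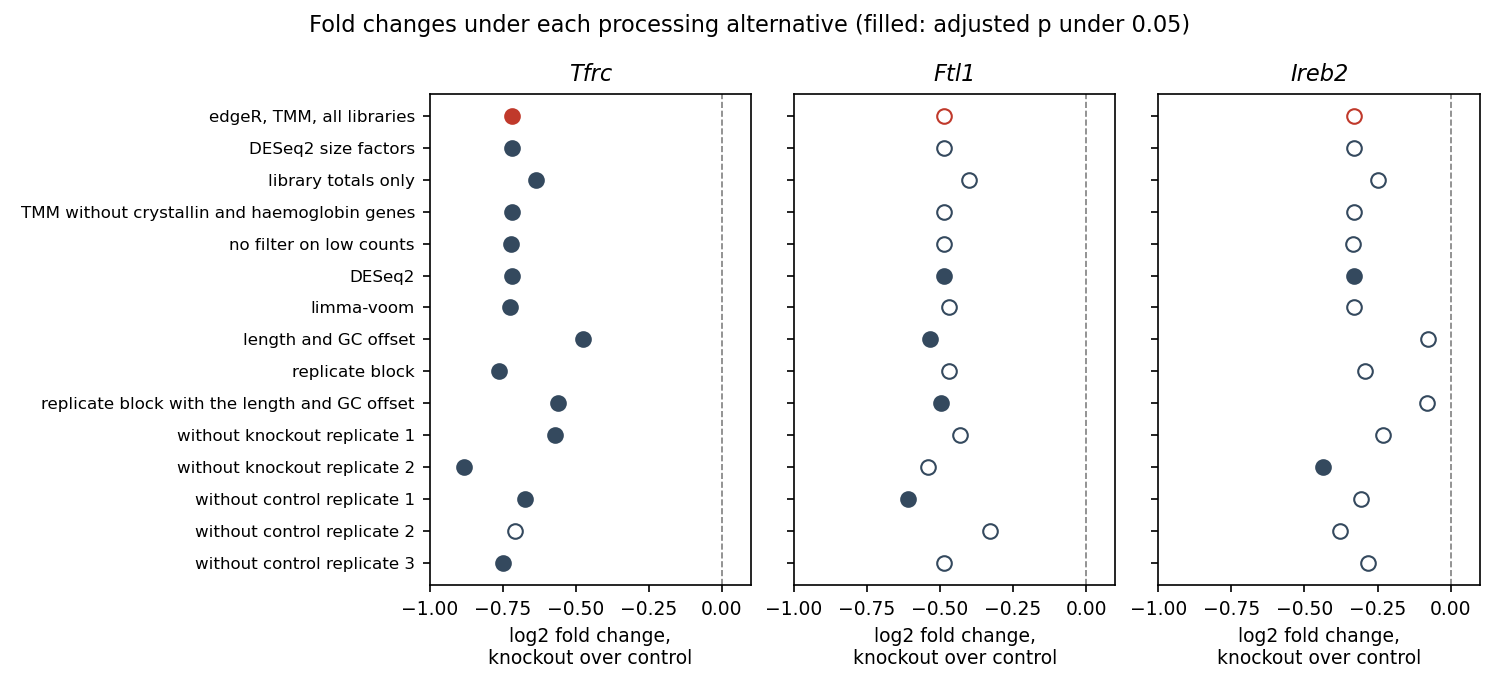
Log2 fold changes, knockout over control (horizontal axes), of Tfrc, Ftl1 and Ireb2 in the edgeR fit with all libraries (red) and under 14 alternatives (dark), filled where the adjusted p was under 0.05. Tfrc ran from -0.88 to -0.48, Ftl1 from -0.61 to -0.33 and Ireb2 from -0.44 to -0.08.

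Levels of different genes were set side by side per kilobase of transcript (RPKM, from the scaled counts and the lowest-numbered CCDS transcript). The ferritin mRNAs were far above the rest. Fth1 was at 253 ± 12.1 RPKM in the knockouts and 257 ± 18 RPKM in the controls, and Ftl1 at 194 ± 10.1 RPKM in the knockouts and 272 ± 51.3 RPKM in the controls (SD, n = 2 and 3). In the controls Ftl1 was at percentile 99.4 and Fth1 at percentile 99.3 of 11804 genes, and they did not differ from each other beyond their spread. Ireb2 followed with 25.5 ± 2.54 RPKM in the knockouts and 32 ± 2.36 RPKM in the controls. Tfrc had 14.8 ± 2.22 RPKM in the knockouts and 24.3 ± 1.33 RPKM in the controls. Aco1 stood at 14.3 ± 0.981 RPKM in the knockouts and 13.4 ± 1.07 RPKM in the controls. Tfrc therefore lay above Aco1 in every control library, while in the knockouts the levels of Tfrc and Aco1 did not differ beyond their spread. Slc11a2, with 11.5 ± 1.49 RPKM in the knockouts and 9.88 ± 0.95 RPKM in the controls, and Slc40a1, with 3.8 ± 0.893 RPKM in the knockouts and 4.58 ± 1.52 RPKM in the controls, closed the order.

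Ratios within a library do not depend on how libraries are scaled, but they do carry differences in GC content and length between the genes. They are given as a description, with no test. Tfrc over Fth1, an uptake mRNA over a storage mRNA, was 0.0539 and 0.0624 in the knockouts and 0.104, 0.087 and 0.0936 in the controls, without overlap. The GC content is 39.8% for Tfrc and 53.4% for Fth1. With the GC and length correction their log2 fold changes were -0.48 and 0.07. Heavy over light ferritin chain (Fth1 over Ftl1) was 1.31 and 1.3 in the knockouts and 1.12, 0.858 and 0.914 in the controls. The knockout libraries were nearly equal in this ratio and both lay above the controls. Ireb2 over Aco1 was 1.58 and 2.01 in the knockouts and 2.26, 2.33 and 2.62 in the controls, again without overlap. These genes differ in GC content (39% for Ireb2, 52.1% for Aco1), and with the GC and length correction their log2 fold changes were nearly equal, at -0.08 for Ireb2 and -0.09 for Aco1. Slc11a2 over Slc40a1 was 3.96 and 2.36 in the knockouts and 2.52, 3.07 and 1.44 in the controls, with overlap. All ratios are per kilobase and show unequal levels, not which gene of a pair changed.

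The wider iron pathway was described by lists taken from textbook knowledge. Of 21 tested genes for iron transport, storage and regulation beyond the 7, 3 rose and 1 fell, which is 19% against 16.5% of all genes (7.98% rose and 8.51% fell). Lrp2, the endocytic receptor megalin, was at 17.5 and 38.5 CPM in the knockouts and at 9.09, 8.8 and 7.89 CPM in the controls, a rise of 1.70 on the log2 scale (SE 0.29, edgeR adjusted p = 0.015). It was 1.03 without knockout replicate 2 and 2.16 without knockout replicate 1, and passed in both. Like the retina markers it was higher in knockout replicate 2 than in replicate 1, and the part of retinal RNA in its rise was not tested. Cp, the ferroxidase ceruloplasmin, fell 1.31-fold, to 303 ± 15.7 CPM in the knockouts against 397 ± 5.66 CPM in the controls (edgeR adjusted p = 0.025). Heph, the membrane ferroxidase hephaestin that works with ferroportin, rose 1.42-fold, to 26.4 ± 1.98 CPM in the knockouts against 18.6 ± 1.64 CPM in the controls (edgeR adjusted p = 0.037). Slc22a17, a receptor for the iron-carrying protein lipocalin 2, rose 1.38-fold (edgeR adjusted p = 0.046). With the GC and length correction, the log2 fold change was -0.20 for Cp and 0.05 for Slc22a17, and neither passed. The list's median log2 fold change was 0.03.

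In the same list DESeq2 called 3 higher and 2 lower, and limma-voom 2 higher and 1 lower. The remaining members did not pass with edgeR. Trf, transferrin itself, was at 18.9 ± 3.68 CPM in the knockouts and 20.8 ± 4.12 CPM in the controls. Pcbp1 and Pcbp2, RNA-binding proteins that also deliver iron to ferritin, had log2 fold changes of -0.07 and 0.03. A pair of genes was named after the values were seen, because their products act on ferritin and on iron regulatory protein 2. The pair does not stand for the list, in which 12 genes had a log2 fold change above 0 and 9 below 0. Ncoa4, the receptor that sends ferritin to lysosomes, was at 13 and 14.8 CPM in the knockouts and at 18, 19 and 22.7 CPM in the controls (edgeR adjusted p = 0.052, DESeq2 adjusted p = 0.048). Fbxl5, which marks iron regulatory protein 2 for degradation, was at 55.4 and 57 CPM in the knockouts and at 65, 63.1 and 71.8 CPM in the controls (edgeR adjusted p = 0.089). The GC content was 43.8% for Ncoa4 and 43.7% for Fbxl5. Genes within 1 percentage point of 43.5% had a median log2 fold change of -0.16.

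**Figure D4:**
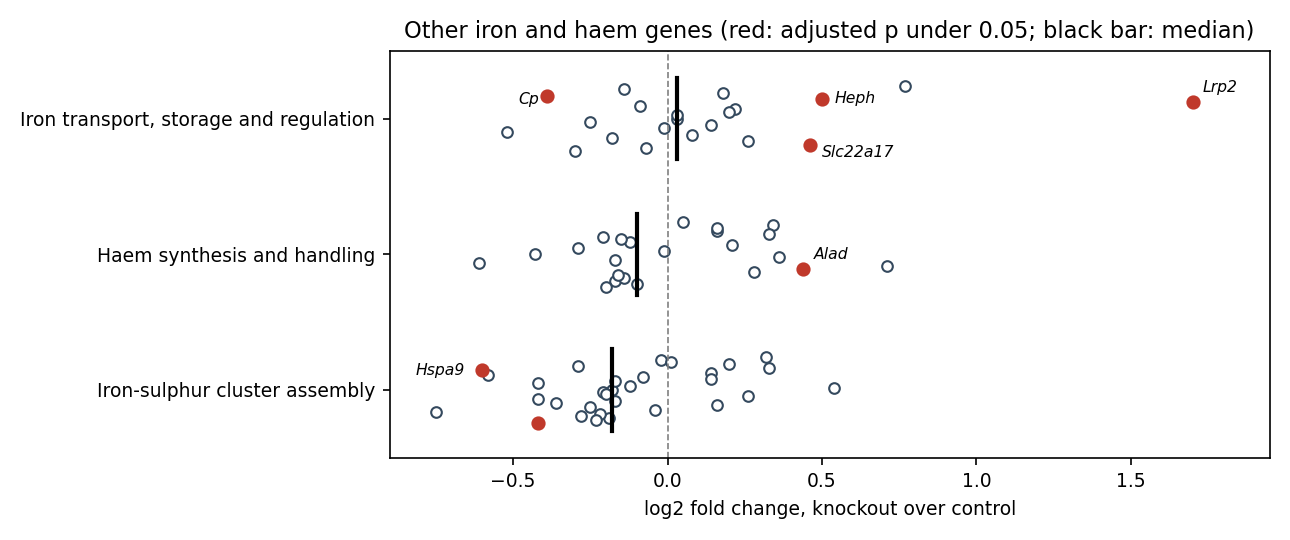
Log2 fold changes, knockout over control (horizontal axis), of the tested genes of 3 lists of iron and haem genes, 1 point per gene with vertical scatter for legibility, red where called and with black bars for medians. Lrp2 stands out at 1.70, and the medians lie at 0.03, -0.10 and -0.18.

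Of 23 tested genes for haem synthesis and handling, 1 rose and 0 fell, which is 4.35% against 16.5% of all genes tested, with 3 higher and 0 lower at an unadjusted edgeR p under 0.05. DESeq2 and limma-voom also called 1 higher and 0 lower. Alad, the second enzyme of haem synthesis, was at 51.7 and 49.4 CPM in the knockouts and at 37.6, 35.3 and 38.5 CPM in the controls. It was 1.36-fold higher (edgeR adjusted p = 0.022). With the GC and length correction its log2 fold change was 0.34 and did not pass (edgeR adjusted p = 0.068). Alas1, which catalyses the first step outside red cells, was at 25 ± 0.11 CPM in the knockouts and 24.2 ± 0.448 CPM in the controls. Fech, which inserts iron into haem, had a log2 fold change of 0.16. Hmox1, the inducible haem oxygenase, was at 8.3 and 13.8 CPM in the knockouts and at 12.1, 18.1 and 20.6 CPM in the controls (edgeR adjusted p = 0.16). The list's median log2 fold change was -0.10.

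Of 31 tested genes for the assembly of iron-sulphur clusters, 2 fell and 0 rose, which is 6.45% against 16.5% of all genes tested. DESeq2 and limma-voom gave the same counts, and 5 lower and 1 higher had an unadjusted edgeR p under 0.05. Hspa9, the mitochondrial chaperone that hands over new clusters and also imports proteins, was at 163 and 200.1 CPM in the knockouts and at 271, 273 and 284 CPM in the controls (1.52-fold lower, edgeR adjusted p = 0.015). The scaffold gene Iscu and the cysteine desulphurase gene Nfs1 did not pass, with log2 fold changes of -0.29 and -0.23. Of the 31 genes, 22 had a negative log2 fold change, and the median was -0.18. Without control replicate 2, and likewise without control replicate 3, 0 genes of the 3 lists passed (edgeR), while the log2 fold changes moved little. Without control replicate 2 they were 1.73 for Lrp2, -0.39 for Cp, 0.42 for Alad and -0.60 for Hspa9. Without control replicate 2, calls over all genes fell to 21 higher and 17 lower. At an unadjusted p, 8, 2 and 3 genes of the transport, haem and cluster lists were under 0.05 with control replicate 2 left out, and 6, 3 and 3 with control replicate 3 left out. Without knockout replicate 1 the adjusted test called 1, 0 and 0 genes, with 4, 2 and 2 at an unadjusted p under 0.05.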

How the data were processed

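The authors deposited raw counts per gene symbol, and the values are whole numbers whose sum differs between libraries. Per the submitters' processing notes, the tools named are HTSeq 0.6.1, TopHat2 2.0.13, Trim Galore 0.3.7, Cufflinks 2.2.1 and DESeq2, and the build named is mm10, with roles not stated. Neither annotation nor strand setting nor the choice of symbols is stated in these sources. Groups came from the sample titles. The main test was edgeR 4.0.16 in R 4.3.3 (filterByExpr by group with a minimum count of 10, TMM, glmQLFit and glmQLFTest, group only), with Benjamini-Hochberg adjustment over 12035 genes. SE was the absolute log2 fold change over the square root of F. DESeq2 1.42.0 and limma 3.58.1 were alternatives. In the GC and length correction, a loess trend of log2 CPM per library entered the edgeR fit as an offset. Transcript length and GC content were known for 11804 tested genes. Libraries of a group were never within sampling noise of each other (chi-square over degrees of freedom 9.98 to 23.4), so none was taken as a repeat deposit and each was counted as 1 sample. Whether the pools are independent was not tested, and a p-value reflects only how much these libraries vary. The iron genes, lists and tests were chosen with earlier results of these data known. All 7 iron genes, Mycn, up to 6 called genes per list and the 5 genes nearest to Tfrc were named by rule, except that 1 called gene of the iron-sulphur list, counted there, is not reported here.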

Additional observations from a re-analysis of the deposited data

How the results depend on the processing

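Over 14 alternatives Slc11a2 kept its direction and did not pass. Tfrc had a negative log2 fold change in all 14 and missed the threshold in 1, and leaving out single libraries gave log2 fold changes of -0.88 to -0.57 for it. Ftl1 passed with DESeq2 (-0.49), with the length and GC offset (-0.53) and with that offset and the replicate block (-0.50), and ranged from -0.61 to -0.33 over left-out libraries. Ireb2 passed with DESeq2 (-0.33) and ranged from -0.44 to -0.23. Fth1 changed sign with library totals as the only scaling (0.06), with the offset (0.07) and with offset and block (0.05), and ranged from -0.07 to 0.05 over left-out libraries. Slc40a1 was at 0.01 with the replicate block, at 0.13 with block and offset, and between -0.53 and 0.02 over left-out libraries. Aco1 was at -0.09 with the offset and -0.11 with block and offset. Slc22a17 was at -0.0037 with block and offset. None of these sign changes was called, and their cause was not tested.

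Of all genes tested, 960 were higher and 1024 lower. The counts were 1511 higher (637 lower) with library totals only, 332 higher with the offset, 473 higher and 522 lower with the replicate block, and 290 higher and 493 lower with both. They ranged from 21 to 1426 higher and from 17 to 1291 lower over left-out libraries, with the lowest without control replicate 2. The iron transport list had 2 calls with the offset and 1 with the block, with or without the offset, the haem list 0 with the offset and 0 with block and offset, and the cluster list 1 with library totals only. Over left-out libraries these lists had 0 to 6, 0 to 2 and 0 to 4 calls.

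The groups share the replicate numbers 1 and 2, but the deviations of same-numbered libraries correlated at -0.07 and 0.043 across genes, and the labels do not pair them. With the replicate block the log2 fold change of Tfrc was -0.76 (edgeR adjusted p = 0.024). Adding counts of ferritin gene copies to Fth1 and Ftl1 was not run. Slc40a1 had the lowest depth of the 7 genes, at 143 to 276 counts per library, and its control libraries spread over 15.4 ± 5.11 CPM (SD, n = 3).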

Other observations

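The iron-responsive element pattern was also present in UTRs of other genes, which were looked up after the values above were seen. Of 25 other genes with it in a 5′ UTR, 17 were tested, and 1 rose and 1 fell, which is 11.8% against 16.5% of all genes tested (edgeR adjusted p under 0.05), with a median log2 fold change of -0.03. The gene that fell was Eif2s1, a subunit of translation initiation factor 2 (log2 fold change -0.71, edgeR adjusted p = 0.01). The one that rose was Hdac7, a histone deacetylase (0.66, edgeR adjusted p = 0.013). Their GC content was 40.8% for Eif2s1 and 59.8% for Hdac7. Genes within 1 percentage point of 39.8% had a median log2 fold change of -0.29, and those within 1 of 58.1% a median of 0.26. The part of GC content in these calls was not tested. Alas2, the red cell form of the first haem enzyme, is known to be controlled through such an element. Its log2 fold change was 0.24, which did not pass (edgeR). Of 126 other genes with the pattern in a 3′ UTR, 89 were tested, and 9 rose and 8 fell, which is 19.1%. Whether these matches fold or bind was not measured.

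MYC proteins bind the E-box CACGTG. Of the 7 genes, 5 had promoter windows in the RefSeq table (GRCm38.p6, 250 bases before to 50 after a start), 7 windows in all, and these letters were in 0 of them, against 7.15% of 32851 windows of the same length. The motif reads the same on both strands. No match says only that these letters are not in these windows.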
